A study of Saccharomyces cerevisiae with 10 samples.

Results

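The transcripts of 10 regulators of starvation signalling and of entry into quiescence in *Saccharomyces cerevisiae* are described here: TOR1, SCH9, NPR1, RIM15, IGO1, IGO2, GIS1, MSN2, MSN4 and SNF1. They were picked by name, as known kinases, phosphatase inhibitors and transcription factors of these pathways, from the 7252 genes of the deposited tables, and all 10 were found. RNA was sequenced from cells of a prototrophic BY4741 strain (MATa) carrying sfGFP, a green fluorescent protein, behind pRPL28, the promoter of a ribosomal protein gene. Every library came from a culture that had spent 4 h in the rich medium YPD and was then held for 1 h in minimal medium with 0.8 mM proline, a poor nitrogen source. After that hour, the paper states, cells were spun down and stayed cold in phosphate-buffered saline while they were sorted, before freezing. Whether this hold changed any value below was not tested. Cells were sorted on pRPL28 fluorescence and side scatter into fractions termed high and low, excluding doublets and budding cells by gating, so that the fractions differ by a sorting gate and not by genotype or treatment. There were 5 high and 5 low libraries, and the question is whether the messages of these regulators differed between the fractions at this early time.

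Yeast cells sense nitrogen mainly through TORC1, a kinase complex that promotes growth when amino acids are plentiful. When TORC1 and protein kinase A are low, the kinase Rim15 becomes free to act, phosphorylates the small proteins Igo1 and Igo2, and these inhibit a form of protein phosphatase 2A, which favours the stress and quiescence programmes run by Gis1, Msn2 and Msn4. Snf1, the yeast AMP-activated kinase, responds to poor carbon supply. Most of these proteins are known to be controlled by phosphorylation and by their place in the cell, which counts of mRNA do not measure.

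The step that joins Rim15 to Igo1 and Igo2 lies in a short stretch that the paralogues share, shown here because both messages are followed below. The sequences run 5′ to 3′ on the plus strand in the R64 assembly of RefSeq, at chrXIV:340514-340573 for IGO1 and chrVIII:370213-370272 for IGO2, and lie within the coding sequence. Capitals mark the codon of the serine that Rim15 phosphorylates, codon 64 of 168 in IGO1 and codon 63 of 131 in IGO2.
IGO1: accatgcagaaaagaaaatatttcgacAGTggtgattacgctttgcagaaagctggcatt
IGO2: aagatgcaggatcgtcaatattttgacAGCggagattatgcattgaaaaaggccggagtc
Aligned without gaps, the 2 stretches hold the same base at 41 of 60 positions. The longest run of bases shared by the 2 whole coding sequences is 8, so the messages differ throughout at the scale of a read. Of the other paralogue pairs, MSN2 and MSN4 share at most 12 bases in a row, GIS1 and RPH1 14, and TOR1 and TOR2 19, the run below from chrX:562224-562242 of TOR1.
TOR1 and TOR2: attatgcatatttttcaaa
All 10 regulators are protein-coding genes that overlap no other gene in the authors' annotation, and their coordinates there are those of R64.

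The study compared 5 high with 3 low libraries, since it dropped L2_2609 and L1_2709, both low, after a principal component analysis, and the comparisons here follow it. The high libraries held 22167864 to 27752702 counts, the 3 low ones 18977794 to 23644299, and those left out 15879779 and 21503922. Genes with only 1 to 9 counts numbered 275 to 345 in high against 33 to 47 in the 3 low libraries, while 383 to 511 genes had 0 counts in high and 983 to 1249 in low. In the left-out libraries 1552 (L1_2709) and 1065 (L2_2609) genes had 0 counts. The lowest count of the 10 regulators was 1450 in the 8 libraries and 503 in all 10. These are reads without molecular identifiers, so they do not show how many molecules were sampled. In the edgeR comparison of low with high, 335 of 6492 genes had an adjusted p-value under 0.05, here termed called. Of these, 54 were higher and 281 lower in low. Mitotic genes were lower in low for 12 of 12, with a median log2 fold change of -2.87 and the largest falls in CLB2 (-4.70), HOF1 (-4.37), SWI5 (-3.99), CLB1 (-3.31) and DBF2 (-3.01). Their summed level was 1441 to 1971 CPM (counts scaled to library size) in high, 214 to 354 in low and 260 to 413 in the left-out libraries, and CLB2 was at 0 in a low library. Of 10 daughter-specific genes, DSE2 (2.50), CTS1 (2.41) and DSE1 (2.13) were higher and EGT2 (-1.79) lower in low, and their sum was 827 to 1349 CPM in high, 2364 to 3107 in low and 1697 to 2367 in the left-out libraries. The part of these marker differences in any value below was not tested, and in bulk RNA fewer cells of a type and less RNA per cell cannot be told apart. The transcript of the sorting marker itself, sfGFP, averaged 179 CPM in high (SD 105, n = 5) against 161 CPM for low (SD 40.7, n = 3) and was not called (adjusted p = 0.904). RPL28 was listed at 8.96 ± 2.99 and 11.2 ± 8.23 CPM, and overlaps another gene on the opposite strand, so its counts are uncertain. The submitters call the libraries of a fraction biological replicates without saying whether each came from a culture of its own, and p-values measure the spread between these libraries, which may be technical in part.

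None of the 10 regulators was called, against 5.16% of all genes tested. The 10 log2 fold changes of low over high ran from -0.19 in RIM15 to 0.31 in MSN2, with a median of 0.13, 8 above 0 and 2 below. For all genes tested the median was -0.024. At an unadjusted p under 0.05 in edgeR stood 1 of the 10, NPR1, where 17.6% of all genes did. No regulator was called by DESeq2, which called 9.88% of the genes it tested, by limma-voom, which called 4.08%, or by edgeR on all 10 libraries, which called 3.55%. The intervals show how much difference these libraries leave possible. Every 95% interval lay between -0.50 and 0.64, that is between 0.707 and 1.56 times the level in high. An interval wholly within a 2-fold change in either direction, as all 10 had, was found for 62.88% of all genes tested and for 87.11% of the 1909 genes whose mean level lay in the range of the regulators. An interval within 1.5-fold was found for 9 of the 10 (all but MSN2), for 29.28% of all genes and for 54.16% of those 1909.

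**Figure D1:**
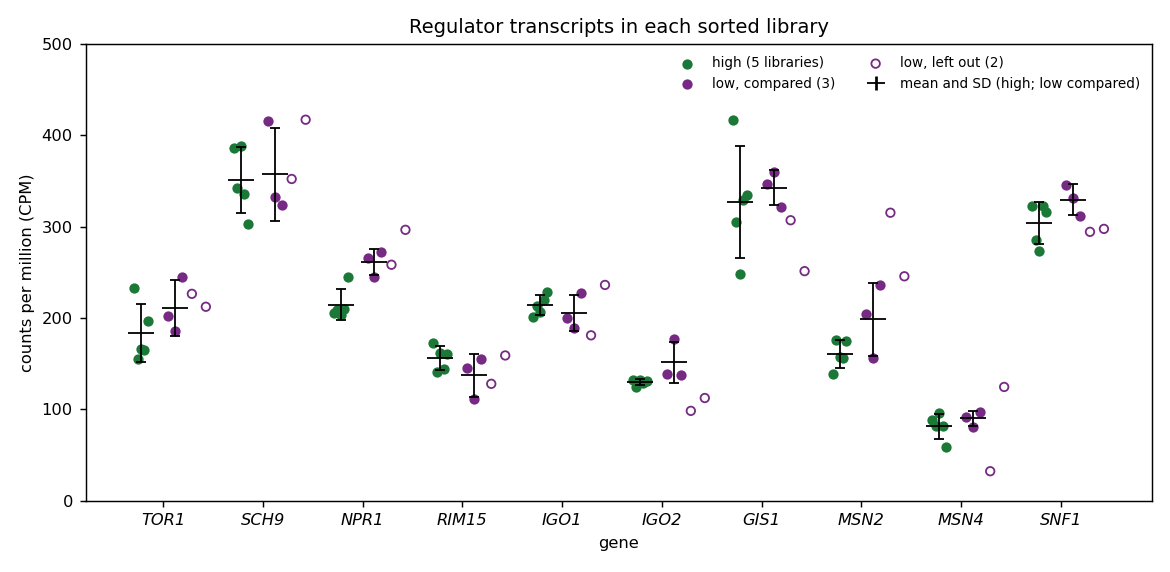
CPM of each regulator in each library. Green points are the 5 high libraries, filled purple points the 3 low libraries compared, open purple points the 2 low libraries left out, and black bars the mean and SD. The fractions overlap for 8 of the 10 genes, and the open points of IGO2 and MSN4 and the highest one of MSN2 lie away from the filled ones.

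Values per library are given below in CPM and in a fixed order, H1_2609, H1_2709, H2_2609, H2_2709 and H_2909 for high, L1_2609, L2_2709 and L_2909 for low, and L1_2709 and L2_2609 for the left-out libraries.

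TOR1 (YJR066W, chromosome X, 559416 to 566828) encodes a kinase subunit of TORC1. It stood at 233, 155, 167, 165 and 197 CPM in high, 202, 185 and 245 in low, and 227 and 212 in the left-out libraries. The fractions overlapped, since H1_2609 lay above 2 of the 3 low libraries and H_2909 lay above L2_2709. The means were 183 ± 31.7 (SD, n = 5) and 211 ± 30.9 (SD, n = 3), a log2 fold change of 0.20 (SE, the standard error, 0.16, 95% interval -0.16 to 0.57, adjusted p = 0.597). It was 0.080 without L_2909 and 0.30 without H1_2609. TOR2, whose product can take the place of Tor1 in TORC1 and is also the kinase of TORC2, stood at 89.0 ± 11.5 CPM in high and 89.9 ± 12.8 in low, a log2 fold change of 0.013 (SE 0.15). In the left-out library L1_2709, TOR2 was at 21.3 CPM, from 331 counts, below every other library, while TOR1 was at 227.

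SCH9 (YHR205W, chromosome VIII, 509363 to 511837) encodes the kinase that TORC1 activates to drive ribosome synthesis. Its values were 386, 342, 388, 336 and 303 CPM in high, 416, 332 and 324 in low, and 352 and 417 in the left-out libraries. High and low covered much the same range, with L1_2609 the highest of the 8. The means of 351 ± 36.1 and 357 ± 51.1 gave the smallest difference of the 10, a log2 fold change of 0.024 (SE 0.14, 95% interval -0.28 to 0.33, adjusted p = 0.961). Its sign was not fixed, at -0.011 with upper quartile scaling and -0.10 without L1_2609.

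NPR1 (YNL183C, chromosome XIV, 293137 to 295509) encodes a kinase that TORC1 holds inactive and that protects amino acid permeases from removal when nitrogen is poor. In high it stood at 205.3, 208.4, 203.9, 209.8 and 244.6 CPM, in low at 266, 245.4 and 273, and in the left-out libraries at 258 and 297. All 3 low libraries lay above all 5 high ones, though L2_2709 passed H_2909 by less than 1 CPM, and both left-out libraries lay above them as well. The other 4 high libraries kept within 203.9 and 209.8 CPM. The means were 214 ± 17.0 and 261 ± 14.3, a log2 fold change of 0.28 (SE 0.11, 95% interval 0.041 to 0.53). The adjusted p was 0.200 in edgeR, 0.0818 in DESeq2 and 0.128 in edgeR on all 10 libraries, so that this difference passed the threshold in none of them. A lack of overlap between 5 high and 3 low libraries was seen for 2 of the 10 regulators, NPR1 and IGO2, and for 15.5% of all genes tested. Between all 5 high and all 5 low libraries it was seen for NPR1 only, and for 7.96% of all genes.

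RIM15 (YFL033C, chromosome VI, 69115 to 74427) encodes the kinase on which TORC1 and protein kinase A signals converge at the entry into quiescence. It was at 173, 141, 161, 145 and 161 CPM in high, 146, 111 and 155 in low, and 128 and 159 in the left-out libraries. L2_2709 was the lowest of all 10, and the other 2 low libraries compared lay inside the range of high. At 156 ± 13.3 against 137 ± 23.2, its log2 fold change of -0.19 (SE 0.14, 95% interval -0.50 to 0.13, adjusted p = 0.562) was the lowest of the 10 and became -0.057 without L2_2709.

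IGO1 (YNL157W, chromosome XIV, 340352 to 340858), the first of the substrates of Rim15 shown above, had 201, 213, 206, 220 and 229 CPM in high, 200, 189 and 228 in low, and 181 and 236 in the left-out libraries. The fractions overlapped, and the means of 214 ± 11.0 and 205 ± 20.0 gave a log2 fold change of -0.061 (SE 0.11, 95% interval -0.31 to 0.19, adjusted p = 0.847). It was -0.0048 without L2_2709 and -0.14 without L_2909. IGO2 (YHR132W-A, chromosome VIII, 370054 to 370449) had 133, 124, 132, 129 and 131 CPM in high, the tightest group of any regulator, with a coefficient of variation of 2.70%. In low it had 139, 177 and 138, and in the left-out libraries 98.4 and 112. The 3 low libraries compared thus lay above every high library and the 2 left out lay below every one. With 130 ± 3.51 against 151 ± 22.4, the log2 fold change was 0.22 (SE 0.12, 95% interval -0.045 to 0.49, adjusted p = 0.379). It was 0.090 without L2_2709 and 0.035 in the fit to all 10 libraries.

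GIS1 (YDR096W, chromosome IV, 637139 to 639823) encodes a zinc-finger factor that acts on genes switched on after the diauxic shift. It was at 417, 305, 248, 330 and 334 CPM in high, 346, 359 and 322 in low, and 307 and 251 in the left-out libraries. The high libraries spread most widely here, with a coefficient of variation of 18.7%, and held both the highest and the lowest of the 10 values. The means of 327 ± 61.1 and 343 ± 19.0 gave a log2 fold change of 0.067 (SE 0.16, 95% interval -0.30 to 0.43, adjusted p = 0.885), whose direction was not stable. It was -0.043 with all 10 libraries and -0.019 without H2_2609. RPH1, the paralogue of GIS1, stood at 322 ± 23.1 CPM in high and 362 ± 26.6 in low, a log2 fold change of 0.17 (SE 0.11, adjusted p = 0.508).

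MSN2 (YMR037C, chromosome XIII, 344403 to 346517) and MSN4 (YKL062W, chromosome XI, 323228 to 325120) encode the related factors of the general stress response. MSN2 stood at 138, 176, 157, 156 and 175 CPM in high, 204, 156 and 236 in low, and 315 and 246 in the left-out libraries. Of the 5 low libraries 4 lay above every high library, and only L2_2709 lay among them. Its means were 161 ± 15.7 and 199 ± 40.0, a log2 fold change of 0.31 (SE 0.15, 95% interval -0.031 to 0.64, adjusted p = 0.335). With all 10 libraries the log2 fold change was 0.53 and the adjusted p 0.133, with L_2909 left out 0.17 and with L2_2709 left out 0.45. MSN4 stood at 88.8, 81.8, 95.8, 81.9 and 59.3 CPM in high, 92.0, 81.3 and 97.4 in low, and 32.4 and 125 in the left-out libraries. Of the low libraries 2 lay among the high ones and L_2909 just above them, whereas the left-out ones held the lowest and the highest of the 10 values. With 81.5 ± 13.7 against 90.2 ± 8.21, its log2 fold change was 0.15 (SE 0.16, 95% interval -0.22 to 0.51, adjusted p = 0.736). It was 0.050 without H_2909 and 0.086 without L_2909.

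SNF1 (YDR477W, chromosome IV, 1412373 to 1414274), the kinase of the glucose-starvation branch, had 322, 285, 274, 323 and 316 CPM in high, 346, 331 and 312 in low, and 294 and 298 in the left-out libraries. The fractions overlapped, and the left-out libraries lay inside the range of high. Its means of 304 ± 23.0 and 329 ± 17.0 gave a log2 fold change of 0.12 (SE 0.11, 95% interval -0.13 to 0.36, adjusted p = 0.673), and 0.057 with all 10 libraries.

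**Figure D2:**
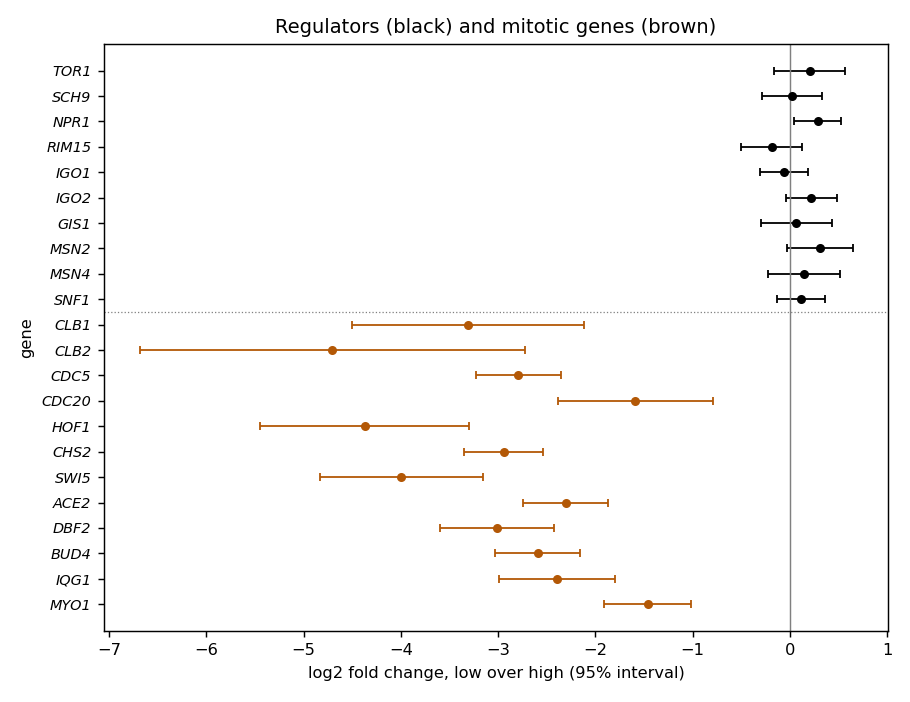
Log2 fold change of low over high with its 95% interval from edgeR on 5 high and 3 low libraries, for the 10 regulators (black) and, for scale, the 12 mitotic genes (brown). The intervals of the regulators lie between -0.50 and 0.64, and only that of NPR1 leaves out 0, while every mitotic gene lies to the left of 0.

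The library names share endings that the labels do not explain, and they form 3 sets, each with 1 low library compared: L1_2609 with H1_2609 and H2_2609, L2_2709 with H1_2709 and H2_2709, and L_2909 with H_2909. Within these sets, in this order, NPR1 was higher in low each time, by 0.38, 0.23 and 0.16 in log2 CPM. TOR1 was higher by 0.039, 0.21 and 0.32, and IGO2 by 0.069, 0.49 and 0.071. RIM15 (-0.20, -0.36 and -0.052) and IGO1 (-0.027, -0.20 and -0.0085) were lower each time. These 5 genes kept 1 direction throughout, and of them NPR1 was the one whose weakest difference, 0.16, exceeded those of the others. MSN2 showed 0.47 and 0.43 in the sets of L1_2609 and L_2909 but -0.086 in that of L2_2709. MSN4 was higher in low only in the set of L_2909, with -0.0030, -0.0095 and 0.71. The high library of that set, H_2909, had the lowest MSN4 value of high, 59.3 CPM. SCH9 (0.10, -0.028 and 0.092), GIS1 (0.11, 0.18 and -0.054) and SNF1 (0.22, 0.13 and -0.021) each had 1 set of the opposite sign. No test was run on these sets, and the share of all genes that keep 1 direction in them was not counted.

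To compare the genes with each other, the authors' FPKM values, which are scaled by coding length, were used. In high the order of levels was IGO1 (415 ± 22.5 FPKM), IGO2 (323 ± 8.77), SNF1 (157 ± 11.3), SCH9 (139.5 ± 14.2), GIS1 (119.6 ± 21.5), NPR1 (88.8 ± 7.11), MSN2 (74.7 ± 7.54), MSN4 (42.3 ± 7.17), RIM15 (28.9 ± 2.37) and TOR1 (24.3 ± 4.04), each as mean ± SD over 5 libraries. Among these 10 genes the small inhibitors of the phosphatase thus had the highest FPKM and the large kinases RIM15 and TOR1, which act above them, the lowest. These are also genes of very different length, 507 bases for IGO1, 396 for IGO2, 5313 for RIM15 and 7413 for TOR1. In CPM, which is not scaled by length, IGO2 (130) lay below RIM15 (156) and TOR1 (183) in high, whereas IGO1 (214) lay above both. A bias of FPKM by length was not tested. IGO1 stood at percentile 93.5 of all genes tested and TOR1 at percentile 31.0. Neighbours whose ranges over the high libraries overlapped were SNF1 and SCH9, SCH9 and GIS1, GIS1 and NPR1, MSN4 and RIM15, and RIM15 and TOR1. In low the order was the same except at its end, where TOR1 (28.1 ± 4.01 FPKM) passed RIM15 (25.5 ± 4.20), a pair that was not separated in high.

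The division of counts within a paralogue pair does not depend on how libraries are scaled, and was compared for 4 pairs as a share of length-scaled counts. TOR1 took 69.3, 65.2, 68.6, 66.5 and 66.6% of TOR1 and TOR2 in high, and 72.8, 66.5 and 71.0% in low. The fractions overlapped, at 67.2% ± 1.69 against 70.1% ± 3.23 (exact permutation test, two-sided, p = 0.143, adjusted over the 4 pairs 0.286). IGO1 took 54.2, 57.3, 54.9, 57.1 and 57.6% of IGO1 and IGO2 in high, and 52.9, 45.4 and 56.3% in low. The low values reached further down, most of all in L2_2709. The means were 56.2% ± 1.56 and 51.5% ± 5.59 (exact permutation test, two-sided, p = 0.0714, adjusted 0.286). In the left-out libraries IGO1 took 59.0 and 62.1%, above every high library. The share of MSN2 in MSN2 and MSN4 was 63.8% ± 5.72 in high and 66.1% ± 2.62 in low (exact p = 0.554, adjusted 0.607). GIS1 made up 47.2% ± 3.71 of GIS1 and RPH1 in high and 45.7% ± 0.836 in low (exact p = 0.607, adjusted 0.607). With 5 libraries against 3 the smallest p this test can give is 0.0179. In the left-out library L1_2709 the shares of TOR1 and of MSN2 were 91.4% and 89.7%, outside the range of the other 9 libraries. That library also had the lowest total and the most genes with 0 counts, 1552, and a link to these shares was not tested.

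**Figure D3:**
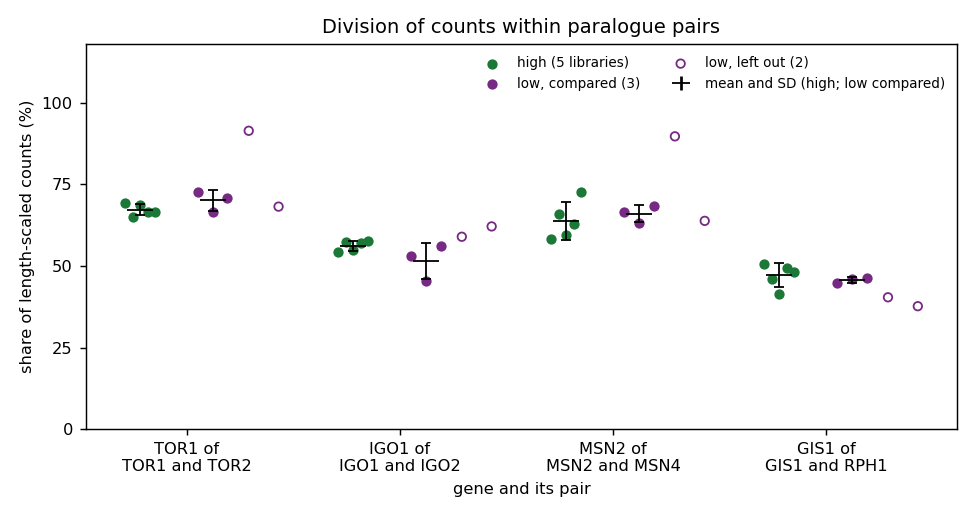
Share of the length-scaled counts of a paralogue pair that belongs to the gene named first, in percent, for each library, with mean and SD for high and for the 3 low libraries compared. High and low overlap in all 4 pairs, and the open point of L1_2709 stands apart at 91.4% for TOR1 and 89.7% for MSN2.

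The other genes of these pathways were followed in 8 lists holding 144 distinct genes, the regulators among them. None of the 144 was called by edgeR (5.16% of all genes tested) or by limma-voom (4.08%), 2 were called by DESeq2 (BUL2 and GRE1, beside 9.88% of all genes) and 1 by edgeR on all 10 libraries (GRE1, beside 3.55%). At an unadjusted p under 0.05 in edgeR stood 12 of the 144, of which 8 were higher and 4 lower in low, beside 17.6% of all genes, of which 423 were higher and 720 lower. The median log2 fold change was 0.074, with 61.8% of the genes above 0, beside 47.1% of all genes tested and 53.2% of those in the range of levels of the regulators.

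TORC1 and its upstream regulators (21 genes, 0 called, median 0.020) had their largest values in VAM6, a guanine nucleotide exchange factor for the Rag GTPases and a vacuole tethering protein (-0.53, adjusted p = 0.332), and in GTR1, one of those GTPases (-0.33, adjusted p = 0.514). With all 10 libraries GTR1 was at -0.049, the left-out L1_2709 having 113 CPM against at most 87.4 in high, and VAM6 at -0.54. Among the effectors of TORC1 (22 genes, 0 called, median 0.025) they were TOD6, a repressor of ribosome biogenesis genes (-0.93, adjusted p = 0.332), and CRF1, a corepressor of ribosomal protein genes (0.43, adjusted p = 0.178). TOD6 stood at 10.2 to 45.3 CPM in high and 8.96 to 18.0 in low, but at 23.1 and 56.5 in the left-out libraries, and its log2 fold change with all 10 was -0.14. CRF1 stood at 65.6 to 85.3 CPM in high and 87.7 to 129 in low, and the left-out libraries, at 100.4 and 112, also lay above high, with a log2 fold change of 0.44 over all 10.

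In the list of Npr1 and permease turnover (9 genes, 0 called, median 0.11) the largest value belonged to BUL2, an adaptor of the ubiquitin ligase Rsp5 that sends permeases such as Gap1 to be removed. BUL2 had 45.0 to 64.6 CPM in high, with a median of 46.4, and 75.8, 81.2 and 74.0 in low. The low libraries compared stood above all high ones, whereas the left-out libraries, at 51.7 and 50.4, did not. Its log2 fold change was 0.60 (SE 0.15) with an adjusted p of 0.0537 in edgeR and 0.00838 in DESeq2.

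In the Rim15 branch (17 genes, 0 called, median 0.094), MSN2 led, followed by HSF1, the heat shock factor (0.26, adjusted p = 0.435). The Ras and protein kinase A list (17 genes, 0 called, median -0.0020) had its extremes in PDE2, the high-affinity cAMP phosphodiesterase (-0.54, adjusted p = 0.337), and RAS2 (0.37, adjusted p = 0.275). For the Snf1 branch (21 genes, 0 called, median 0.12) the largest values in size were those of NRG1, a repressor of glucose-repressed genes (0.64, adjusted p = 0.262), and MIG3, a relative of the repressor Mig1 (0.59, adjusted p = 0.474). Both were highest in L_2909, and without it they were at 0.28 and 0.16.

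Of the genes that Msn2, Msn4 and Gis1 are known to act on, 25 were listed, 0 were called, 0 stood at an unadjusted p under 0.05, and the median was 0.097 with 19 above 0. The largest values were those of HSP26, a small heat shock protein (0.51, adjusted p = 0.649), and YGP1, a secreted glycoprotein induced by starvation (0.45). The median SE of these target genes was 0.25, against 0.14 for the regulators, and 6 of 25 had an interval within 1.5-fold. The high library H1_2609 was the highest of the 5 for 19 of the 25 targets and for 4 of the 10 regulators. This was not particular to the targets. It was also the highest for 13 of 17 genes of the Ras and protein kinase A list and 11 of 15 stationary phase markers. That last list shares SPI1, CTT1 and HSP12 with the targets. The count was 11 of 21 for TORC1 and its upstream regulators, 11 of 21 for the Snf1 branch and 10 of 17 for the Rim15 branch. It was 4 of 9 for Npr1 and permease turnover and 4 of 22 for effectors of TORC1. The share over all genes was not counted. HSP26 was at 1255 CPM in H1_2609 and at 282 to 605 in the other high libraries, and HSP12, a small membrane-protecting stress protein singled out after its values were seen, at 16907 and at 8602 to 11439. Without H1_2609 the median of the targets was 0.19, with 23 of 25 above 0, 0 called and 4 at an unadjusted p under 0.05, and HSP26 was at 0.99. Without the low library L2_2709 the median was 0.010, with 14 above 0, and without the high library H2_2609 it was 0.034, also with 14. Without L_2909 it was 0.21, with 21 above 0, and over all 10 libraries 0.045, with 16. Stationary phase markers (15 genes, 0 called, median -0.11) went both ways, with 7 above 0. The sign of their median was not fixed. It was 0.17 without H1_2609, with 10 above 0, and 0.15 without H_2909, with 9. In the other fits with 1 library left out it was below 0, and over all 10 libraries it was -0.19. Their median SE was 0.39, and 0 of 15 had an interval within 1.5-fold, so large differences remain possible. GRE1, a hydrophilin made under stress and drying, stood at 389 to 1579 CPM in high, and at 2566, 2594 and 1630 in low and 1621 and 2989 in the left-out libraries, all 5 above every high library. Its means were 824 ± 458 and 2263 ± 549, a log2 fold change of 1.46 (SE 0.39, adjusted p = 0.0661), and it was called by DESeq2 (adjusted p = 0.00321) and with all 10 libraries (adjusted p = 0.0324). RGI2, a gene of respiratory growth, had the lowest value of the list at -1.09 (adjusted p = 0.211), which was -0.59 without H1_2609, where RGI2 stood at 229 CPM against 63.6 to 89.0 in the other high libraries.

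**Figure D4:**
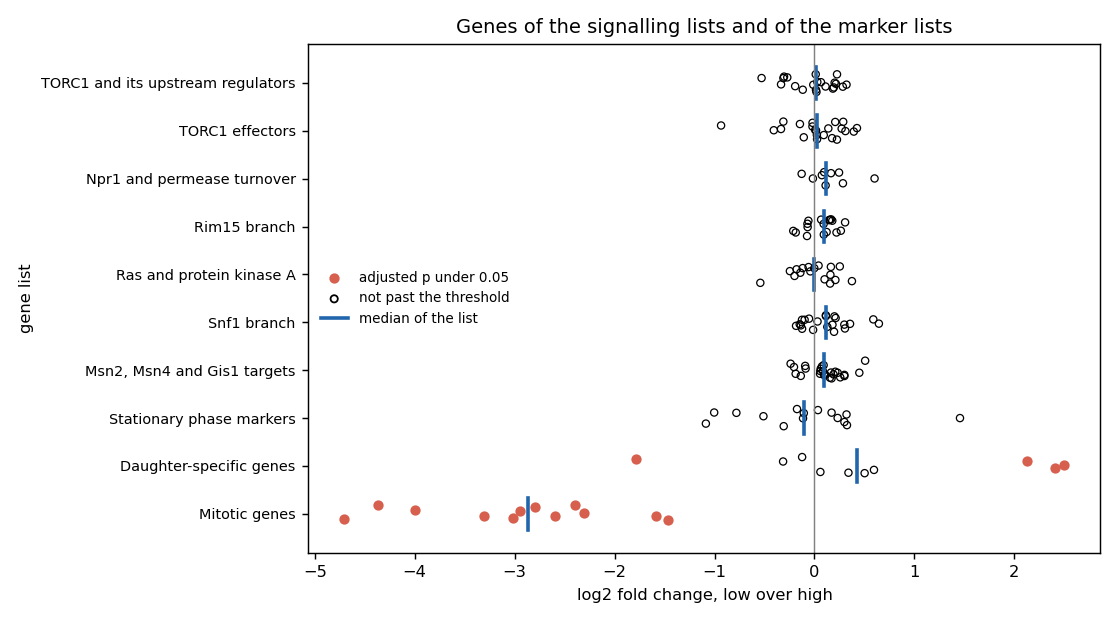
Log2 fold change of low over high for each gene of the 8 signalling lists and the 2 marker lists, with the median of each list as a blue line and red points for an adjusted p under 0.05 in edgeR. The signalling lists hold no red point and centre near 0, with medians from -0.11 to 0.12, while all 12 mitotic genes and 4 of 10 daughter-specific genes are red.

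The genes whose pattern over all 10 libraries was most like that of a regulator were found by the root mean square difference of log2 CPM, each gene centred on its own mean. For NPR1 they were RXT3 (0.0755), PTK1 (0.0770) and GCN2 (0.0902), where the median over all genes was 0.439. For MSN2 they were RMD6 (0.119), IPT1 (0.145) and DNF3 (0.147), with a median of 0.544, and for IGO2 they were OSH3 (0.0814), OMA1 (0.0968) and SAK1 (0.0992), with a median of 0.443. The smallest distances of MSN2 were larger than those of NPR1 and IGO2, and so was its median over all genes. Distances were not scaled by the spread of a gene, so they do not rank how well a pattern was matched.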

How the data were processed

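The authors filtered paired-end reads of poly(A) RNA, aligned these to the Ensembl genome (HISAT2), and deposited raw counts per gene for 10 libraries together with FPKM values. The counting tool and its use of strand are not given in the sources used here. The deposited FPKM are counts scaled by coding length and library total, with 1 factor per library between 0.906 and 1.034. All 6346 intron-free protein-coding genes at the files' coordinates begin and end with start and stop codons in RefSeq R64.

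Low was compared with high (5 high and 3 low libraries, no covariate) with edgeR 4.0.16 in R 4.3.3: filterByExpr, TMM, quasi-likelihood test, Benjamini-Hochberg adjustment over 6492 genes, threshold 0.05. Standard errors are the absolute log2 fold change over the square root of F. CPM used TMM factors over all 10 libraries. Log2 CPM added 0.5. Shares were tested with an exact permutation test over 56 assignments. Alternatives were other factors, DESeq2 1.42.0, limma-voom 3.58.1, limma on log2(FPKM + 1) and log2(FPKM + 0.1), other filters, all 10 libraries, blocks, and each library left out in turn. Members and lists were chosen with earlier results of these data known. Genes named from a list are those called (up to 5) or else the 2 with the largest absolute log2 fold change at a mean of at least 5 CPM. Genes of like pattern were sought for the 3 members with the smallest p. The fits with edgeR, DESeq2, limma-voom and the replicate block in edgeR were tested on simulated counts, the other alternatives were not. In these counts edgeR called 59 of 100 genes changed 2-fold and 96 of 100 changed 4-fold, with 7 false calls. Within a fraction, no library was a duplicate of another. The smallest chi-square over its degrees of freedom was 36.7, between H1_2709 and H2_2709. The next smallest was 104.9, between L1_2609 and L2_2709.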

Additional observations from a re-analysis of the deposited data

Results flagged for a closer look

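In 32 groups of values checked for a library far from the rest of its group, 3 such libraries were found, and chance alone marks about 1 in 20 groups. NPR1 in the high library H_2909 stood at 244.6 CPM, with the other 4 high libraries at 203.9 to 209.8. In the left-out low library L1_2709 the share of TOR1 in TOR1 and TOR2 was 91.42% and that of MSN2 in MSN2 and MSN4 was 89.71%, against at most 72.8% and 68.4% in the other low libraries.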

How the results depend on the processing

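None of the 10 regulators was called in any of 20 alternatives each, with adjusted p-values down to 0.0764 (MSN2, all 10 libraries with a replicate block). Of 200 values, 8 reversed, and 7 regulators had no reversal. SCH9 was at -0.011 with upper quartile factors, GIS1 at -0.043 with all 10 libraries, and with a replicate block GIS1 was at -0.068 (8 libraries) and -0.034 (all 10) and MSN4 at -0.024 (all 10). Leaving out 1 library gave ranges of -0.10 to 0.090 for SCH9 and -0.019 to 0.17 for GIS1. The count of genes called was 677 with DESeq2, 97 with the replicate block in 8 libraries, and 113 to 437 with 1 library left out, the lowest without H1_2709 (113), H2_2709 (119) and H2_2609 (211). The causes were not tested. Pathway genes called were 2 with DESeq2, 1 with all 10 libraries (GRE1), 2 with all 10 and the block (GRE1 and SPG1), and 0 to 1 with 1 library left out (GRE1 without H1_2609, BUL2 without H2_2609, URE2 without L1_2609). Replicate codes shared by high and low were not treated as pairs in the main comparison. In the 8 libraries, deviations of same-coded libraries correlated with r of 0.273, 0.0973 and 0.297 over 4347 genes. These were not all above 0.1, and not every library correlated best with its own code, which was the reason for the choice. Over all 10 libraries r was 0.381, 0.101, 0.594, 0.0176 and 0.381 over 4372 genes. In both sets only the code with the lowest r was not its own best match. Whether same-coded libraries came from the same culture was not tested, so these values do not settle the pairing. The block changed no call of a regulator. Counts are reads without molecular identifiers, and the few genes with 1 to 9 counts in low limit what is known of its scarce transcripts. Proteins, their phosphorylation and their location were not measured.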
